A study of Mus musculus with 233 samples.

Results

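The 33 genes described here encode the receptors through which striatal neurons sense glutamate and the scaffold proteins that hold those receptors in the postsynaptic membrane. The rule is a list of gene symbols with no measured value in it, drawn up with earlier results of these data known: 4 AMPA receptor subunits (Gria1 to Gria4), 5 kainate receptor subunits (Grik1 to Grik5), the delta receptor Grid1, 7 NMDA receptor subunits (Grin1, Grin2a to Grin2d, Grin3a and Grin3b), 6 metabotropic receptors (Grm2, Grm3, Grm4, Grm5, Grm7 and Grm8), 4 membrane-associated guanylate kinases (MAGUKs, Dlg1 to Dlg4), 3 Shank scaffolds and 3 Homer scaffolds. All 33 were found among the 41129 genes of the count table, and all 33 passed the low-count filter in every paradigm. The study measured polyadenylated RNA by bulk sequencing in the striatum of heterozygous zQ175DN mice, here zQ175, and of wild-type (WT) littermates. A zQ175 mouse is a model of Huntington's disease and carries, in 1 of its Htt alleles, the human exon 1 in place of its own, with a CAG tract of expanded length. Each striatal hemisphere received 1 adeno-associated virus. The virus nZFP expresses ZFP30645, an HA-tagged zinc finger repressor directed at the expanded CAG tract, from the human synapsin promoter, which is active in neurons. The control virus DBD expresses the same HA-tagged protein without its DNA-binding domain from the same promoter, and the control virus Estop holds a stuffer sequence that encodes no protein. The hemispheres of a mouse received different viruses. Mice were injected at 2 months of age and collected at 6 or 8 months (paradigms 2M_6M and 2M_8M), or injected at 6 months and collected at 8, 10 or 12 months (6M_8M, 6M_10M and 6M_12M), and each combination of genotype, virus and paradigm holds 6 to 8 libraries of both sexes.

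Glutamate released by cortical and thalamic axons drives the medium spiny neurons, the projection neurons that make up most of the striatum. AMPA receptors carry the fast current, NMDA receptors pass calcium when glutamate and depolarisation coincide, kainate receptors modulate release and excitability, and metabotropic receptors act through G proteins. In the spine, MAGUKs such as PSD-95 (Dlg4) anchor NMDA receptors and, through auxiliary proteins, AMPA receptors, while Shank and Homer proteins link this layer to metabotropic receptors, calcium stores and actin. Group I metabotropic receptors (here Grm5) couple to phospholipase C, and group II (Grm2, Grm3) and group III (Grm4, Grm7, Grm8) receptors lower cyclic AMP.

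Because the repressor binds CAG repeats, and because Homer1, Grik2, Grm3 and Shank3 were among the genes with the most called changes, the 250 bases before their RefSeq transcription start (GRCm38.p6) are shown, with matches to 3 short motifs in capitals. Each motif was searched on both strands, so that capitals can also show its reverse complement. The first motif, CAGCAG, is a pair of the repeat units. The second, TGACGT, is the core of the cyclic AMP response element. The third, GCGTGGGCG, is the binding motif of the activity-regulated factor Egr1, and none of the 3 motifs overlaps another in these windows.
Homer1, chr13:93303507-93303756, plus strand: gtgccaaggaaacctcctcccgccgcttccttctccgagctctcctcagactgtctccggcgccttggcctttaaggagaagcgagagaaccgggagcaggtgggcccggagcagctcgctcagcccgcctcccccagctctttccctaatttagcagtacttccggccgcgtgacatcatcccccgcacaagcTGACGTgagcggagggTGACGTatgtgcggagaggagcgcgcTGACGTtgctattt
Grik2, chr10:49788755-49789004, minus strand: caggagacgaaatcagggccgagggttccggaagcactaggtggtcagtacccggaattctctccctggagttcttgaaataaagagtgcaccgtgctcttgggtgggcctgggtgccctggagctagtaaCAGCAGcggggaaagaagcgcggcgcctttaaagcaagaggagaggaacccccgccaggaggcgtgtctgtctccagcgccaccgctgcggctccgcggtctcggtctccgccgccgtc
Grm3, chr5:9725353-9725602, minus strand: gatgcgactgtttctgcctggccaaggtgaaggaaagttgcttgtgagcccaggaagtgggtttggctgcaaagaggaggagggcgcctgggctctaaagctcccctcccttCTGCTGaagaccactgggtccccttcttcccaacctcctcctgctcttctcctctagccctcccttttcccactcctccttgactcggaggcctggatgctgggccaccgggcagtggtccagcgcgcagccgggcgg
Shank3, chr15:89499358-89499607, plus strand: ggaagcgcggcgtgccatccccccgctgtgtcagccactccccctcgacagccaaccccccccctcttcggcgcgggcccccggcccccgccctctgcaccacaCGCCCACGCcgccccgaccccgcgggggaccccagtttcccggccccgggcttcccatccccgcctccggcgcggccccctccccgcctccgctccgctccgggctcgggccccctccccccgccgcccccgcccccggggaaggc
The Homer1 window held 3 matches to TGACGT, a motif with at least 1 match in 6.47% of the 32851 promoter windows in the table. The Shank3 window held 1 match to GCGTGGGCG, a motif in 0.536% of all windows. The Grik2 and Grm3 windows each held 1 match to CAGCAG, a motif in 25.4% of all windows. Homer1 has 2 starts in the table and the first in the direction of transcription is shown, while the window of the other (chr13:93307784-93308033) held 1 match to CAGCAG and 0 to TGACGT. A run of 3 such units (CAGCAGCAG) was in 1.28% of all windows and in 0 of the 35 windows of the 22 genes of the set that the table holds. Of those 35 windows, 1 held TGACGT, 1 held GCGTGGGCG and 11 held CAGCAG. A match describes the letters in the window and not binding of a factor.

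The 233 libraries came from 120 mice, 113 of them with both hemispheres, and held 27993215 to 61296071 counts each (median 37385953). Medium spiny neuron markers were abundant in WT control libraries (Ppp1r1b at a median of 3593 TPM, the length-scaled share of transcripts), while of the cortical markers Tbr1 had a median of 0.0848 TPM and Cux2, the highest, 2.88 TPM. Summed over the list, cortical markers in 6M_8M had group medians of 13.3 to 21.7 CPM, and the highest libraries were at 128 CPM in zQ175 Estop, 78.9 CPM in zQ175 nZFP and 44.9 CPM in zQ175 DBD. In 7 libraries the vector transcripts went against the label, in WT DBD (2M_6M replicate 6, 6M_8M replicates 7 and 8, 6M_12M replicate 2), zQ175 DBD (2M_8M replicate 7, 6M_12M replicate 2) and zQ175 nZFP (6M_8M replicate 5). Another 8 libraries stood apart from their paradigm in the ratio of long to short transcripts, which moves with RNA quality and library preparation: WT DBD 2M_6M replicate 7, 6M_10M replicate 2 and 6M_12M replicate 1, WT Estop 6M_12M replicate 1, WT nZFP 6M_8M replicate 8, zQ175 DBD 2M_6M replicate 3 and 6M_12M replicate 1, and zQ175 nZFP 6M_10M replicate 2. Counts of Htt join both alleles. Median Htt in 2M_6M was 128 CPM (counts scaled to library size) in WT DBD, 88.6 in zQ175 DBD, 116 in zQ175 Estop and 79.3 in zQ175 nZFP. Htt was called lower under DBD than under Estop in zQ175 in 2M_6M (-0.45, adjusted p = 0.0193 by edgeR), and the difference between nZFP and DBD in zQ175 was not called in any paradigm, with log2 fold changes from -0.45 to -0.058. A total over both alleles does not check the labels of the repressor.

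In 72 WT libraries with a control virus, the genes spanned a wide range of levels per unit length. Dlg4 was first at a median of 674 TPM (range 276 to 831), followed by Grin1, the obligatory NMDA receptor subunit, at 264 TPM (range 77.6 to 384). Gria1, Homer1 and Gria2 came next with medians of 203 TPM, 199 TPM and 189 TPM, and their ranges over libraries overlapped widely. The next 5 in order were Dlg2 (178 TPM), Grm5 (161 TPM), Shank3 (146 TPM), Dlg1 (143 TPM) and Grik5 (119 TPM). Grm5 was the highest metabotropic receptor and Grik5, an auxiliary kainate subunit that needs a partner to form a channel, the highest of the kainate subunits. Dlg3, Grm3, Gria3, Grm4, Grid1, Grin2b, Gria4, Grik2, Grin2c, Grm7, Grik3, Shank1 and Shank2 followed with medians between 17.7 and 91.5 TPM. Below 10 TPM were Grin2a (9.50 TPM), Homer3, Grin3a, Grm8, Homer2, Grin2d and Grik4 (3.07 TPM), and below 1 TPM were Grik1, Grin3b and Grm2, at 0.919 TPM, 0.650 TPM and 0.634 TPM. The full ranges of every pair of neighbours in this order overlapped. Dlg4 and Grin1 were set off from the gene after them by quartiles that did not meet, as were Dlg1, Grik5, Dlg3, Grm4, Gria4, Shank2, Homer3 and Grik4. Values of the 3 lowest genes rest on few counts.

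**Figure D1:**
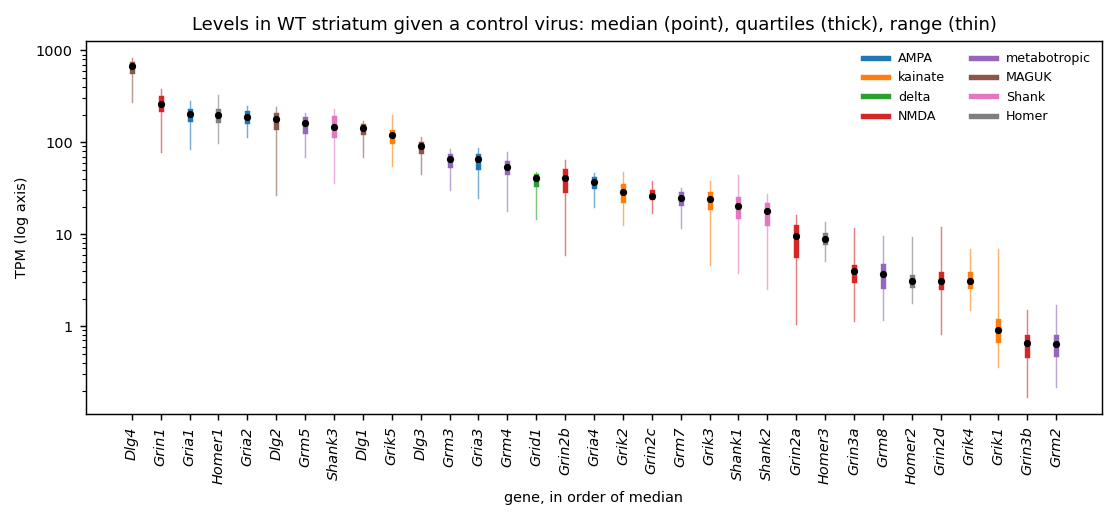
Levels of the 33 genes in the 72 WT libraries with a DBD or Estop virus, in TPM on a log axis, ordered by median. Points are medians, thick lines join the quartiles and thin lines the lowest and highest library. Dlg4 is the highest at a median of 674 TPM and Grm2 the lowest at 0.634 TPM.

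The first comparison asked how the zQ175 allele changed these genes under the DBD control virus. Homer1, Grik2, Grm3, Gria3 and Grin2c fell in all 5 paradigms, and Shank3, Grm4, Grm5, Dlg4 and Grm2 in 4. Gria1, Grin2b, Dlg1, Dlg2, Shank1 and Shank2, genes for other postsynaptic receptors and scaffolds, were not called lower in any paradigm. Fewer genes were higher, led by Grik4 and Homer2 in 3 paradigms each. A gene is called here when edgeR's quasi-likelihood test gave an adjusted p under 0.05 over all genes tested. With paradigms given by age at injection and then by age at collection, here and in all lists of 5 values, 13, 10, 9, 11 and 8 of the 33 genes were called lower, against 11.5%, 9.37%, 5.15%, 12.3% and 9.14% of all genes tested. 1, 2, 0, 6 and 4 genes of the 33 were called higher, against 17.2%, 9.32%, 3.98%, 11.9% and 9.14% of all genes. The share called lower was above that of all genes in each paradigm, and the share called higher was below it in the 3 paradigms collected at 6 or 8 months. The median log2 fold change of the set was -0.20, -0.15, -0.042, -0.041 and -0.064, against 0.035, -0.0018, 0.0089, -0.014 and 0.003 over all genes. Without the libraries against their label, 2M_6M, 2M_8M, 6M_8M and 6M_12M gave 13, 10, 10 and 8 lower and 1, 3, 1 and 4 higher. Without those of outlying transcript length, 2M_6M, 6M_8M, 6M_10M and 6M_12M gave 15, 9, 13 and 8 lower and 3, 0, 6 and 1 higher, where in 6M_12M Grik4 was called and Gria4, Grm8 and Homer2 no longer were. No gene of the set was called in both directions, 12 were called in none of the paradigms, 6 in 1, 2 in 2, 3 in 3, 5 in 4 and 5 in 5. By class, the metabotropic receptors had 4, 3, 3, 4 and 3 of 6 called lower, the NMDA subunits 3, 1, 1, 1 and 1 of 7, the AMPA subunits 1, 2, 1, 2 and 2 of 4 and the kainate subunits 1, 1, 1, 1 and 1 of 5. The class median of the metabotropic receptors was -0.39, -0.37, -0.36, -0.39 and -0.45, and those of the MAGUK, Shank and Homer scaffolds, where 1 gene of each fell and the others did not, were -0.20, -0.073, -0.057, 0.038 and -0.049, -0.08, 0.10, 0.19, 0.35 and 0.34 and -0.13, -0.079, -0.021, 0.071 and 0.16.

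The same question could be asked in the Estop libraries, which do not enter the DBD comparison although many come from the other hemisphere of the same mice. Under Estop 13, 13, 12, 12 and 7 genes were called lower and 2, 2, 2, 1 and 1 higher, against 19.4%, 16.9%, 14.7%, 23.2% and 17.4% of all genes called in either direction. The median log2 fold change of the set under Estop was -0.022, -0.19, -0.16, -0.20 and -0.085. Over all genes it was 0.0055, -0.0021, 0.013, 0.017 and -0.0022. The set median of -0.20 under DBD in 2M_6M was thus -0.022 under Estop. Of the genes called lower under DBD, 11 of 13, 10 of 10, 9 of 9, 11 of 11 and 7 of 8 were also called lower under Estop. As a share of the Estop calls these are 11 of 13, 10 of 13, 9 of 12, 11 of 12 and 7 of 7. Markers of medium spiny neurons moved in the same comparison: 9 of 10 were called lower in zQ175 under DBD in every paradigm, with medians from -0.92 to -0.66 on the log2 scale. The tenth, Tac1, was called higher in 2M_6M (0.69 ± 0.18 (adjusted p = 0.00361)) and in no other paradigm. Their summed level in 2M_6M ranged from 9762 to 12154 CPM (median 10667) in WT DBD and from 5287 to 6956 CPM (median 6175) in zQ175 DBD. Markers of other cells moved less: under DBD at most 1 of 6 astrocyte markers was called in each direction in a paradigm, 0 of 3 oligodendrocyte precursor markers, at most 1 of 6 interneuron markers and at most 2 of 5 microglia markers, both lower. Of the oligodendrocyte markers 0 to 2 of 6 were called lower and 0 or 1 higher, and of the cortical markers that could be tested 1 to 3 were called higher, at summed levels of 8.90 to 17.8 CPM (median 15.0) in zQ175 DBD in 2M_6M. In bulk tissue, fewer cells of a type and less RNA per cell cannot be told apart, and the part of either in the changes below was not tested.

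**Figure D2:**
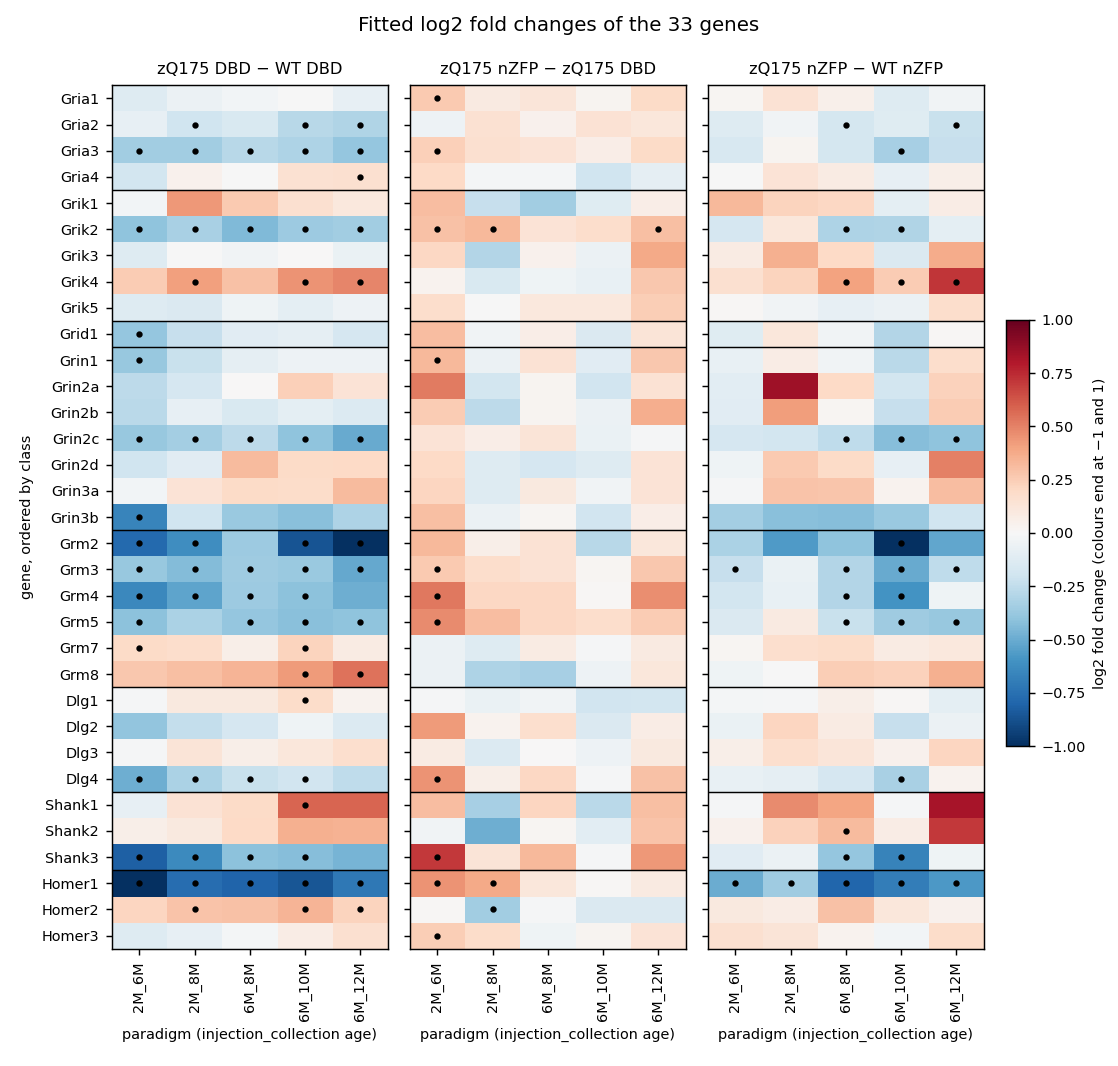
Log2 fold changes of the 33 genes, grouped by class, in zQ175 against WT under DBD, nZFP against DBD in zQ175, and zQ175 against WT under nZFP, with 5 paradigms in each block. Colours end at -1 and 1, and black dots mark calls at an adjusted p under 0.05. The rows of Homer1, Grik2, Grm3, Gria3 and Grin2c carry dots in all 5 paradigms of the first block.

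**Figure D3:**
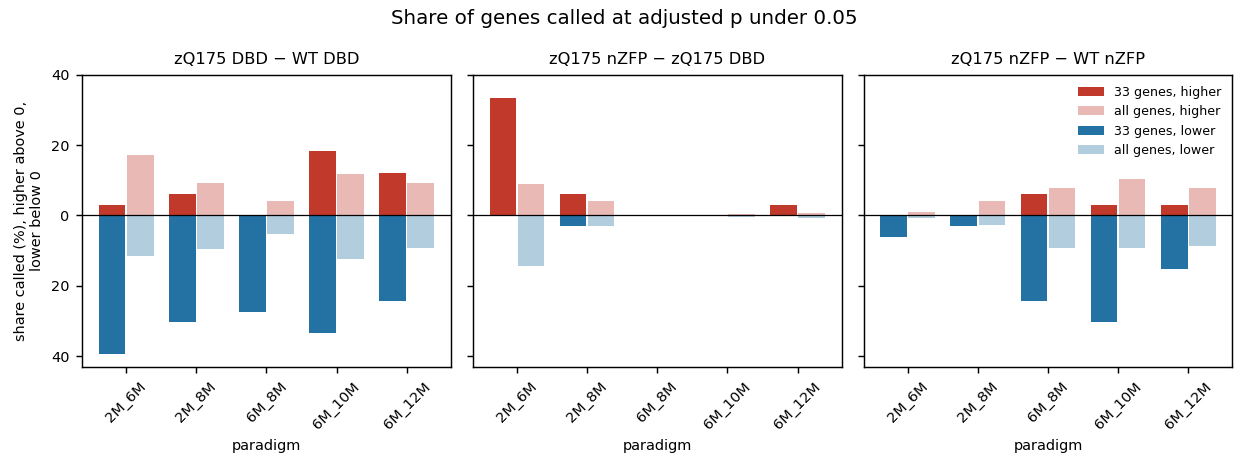
Share of the 33 genes and of all genes tested that were called higher or lower, in percent, in each paradigm and comparison. The share called lower under DBD was 13 of 33 genes in 2M_6M against 11.5% of all genes, and the share called higher with nZFP in zQ175 was 11 of 33 in 2M_6M against 8.8%.

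Among the AMPA receptor subunits, Gria3 (ENSMUSG00000001986, chrX:41400854-41678601, plus strand), one of the 4 pore-forming subunits, fell in all 5 paradigms. In 2M_6M its level ran from 117 to 162 CPM (median 144, n = 8) in WT DBD and from 82.6 to 142 CPM (median 116, n = 7) in zQ175 DBD. The zQ175 median was the lower one and the ranges overlapped, with a log2 fold change ± standard error of -0.35 ± 0.072 (adjusted p = 2.65e-04). Over the paradigms Gria3 differed by -0.35, -0.35, -0.28, -0.31 and -0.39. In 6M_12M it ran from 103 to 153 CPM (median 120.1, n = 7) in WT DBD and from 71.4 to 117 CPM (median 99.2, n = 8) in zQ175 DBD, again with overlap. Gria2, the subunit that keeps AMPA receptors closed to calcium, was called lower in 2M_8M, 6M_10M and 6M_12M (-0.20, -0.28 and -0.30), and under Estop in all 5 paradigms (-0.35 to -0.25). Gria1, the most abundant subunit of the class, was called in no paradigm under either control virus, with log2 fold changes from -0.13 to -0.0055 under DBD. Gria4 was called higher in 6M_12M alone, by 0.16 ± 0.054, and was not called there under Estop (0.10).

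Kainate receptor subunits went in opposite directions. Grik2 (ENSMUSG00000056073, chr10:49094833-49788766, minus strand), a principal subunit that forms channels on its own, fell in all 5 paradigms, with log2 fold changes of -0.40, -0.33, -0.44, -0.37 and -0.35. Grik2 ran, in 2M_6M, from 55.6 to 88.3 CPM (median 62.0, n = 8) in WT DBD and from 43.0 to 63.2 CPM (median 48.6, n = 7) in zQ175 DBD. The medians differed while single libraries overlapped (adjusted p = 0.00154). In 6M_12M it ran from 42.1 to 65.2 CPM (median 50.1, n = 7) in WT DBD and from 35.1 to 44.4 CPM (median 42.8, n = 8) in zQ175 DBD, also with overlap. Grik4 (ENSMUSG00000032017, chr9:42518135-42944493, minus strand), a high-affinity auxiliary subunit, rose in 2M_8M, 6M_10M and 6M_12M. In 6M_10M it ran from 4.57 to 6.24 CPM (median 5.46, n = 8) in WT DBD and from 6.26 to 8.82 CPM (median 7.68, n = 8) in zQ175 DBD. Every zQ175 library lay above every WT library there, with a difference of 0.45 ± 0.083 (adjusted p = 3.79e-05). Under Estop Grik4 was called higher in all 5 paradigms, by 0.48, 0.41, 0.44, 0.46 and 0.51. The other auxiliary subunit, Grik5, and the principal subunits Grik1 and Grik3 were called in none of the paradigms under DBD, with ranges of -0.15 to -0.042, -0.03 to 0.43 and -0.13 to 7.10e-04. Grik5 was called lower under Estop in 2M_8M (-0.29) and Grik1 higher (0.51). The delta receptor Grid1, which joins presynaptic neurexins through cerebellins, was called lower in 2M_6M under DBD (-0.38 ± 0.13) and in 6M_8M and 6M_10M under Estop (-0.21 and -0.32).

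Among the NMDA receptor subunits, Grin2c (ENSMUSG00000020734, chr11:115249169-115267243, minus strand), a regulatory subunit best known from cerebellar granule cells and astrocytes, fell in all 5 paradigms, with log2 fold changes of -0.38, -0.34, -0.26, -0.41 and -0.50. In 2M_6M it ran from 51.7 to 62.5 CPM (median 54.8, n = 8) in WT DBD and from 36.5 to 50.4 CPM (median 44.3, n = 7) in zQ175 DBD. No zQ175 library reached the lowest WT library. In 6M_12M the ranges were from 58.0 to 89.8 CPM (median 62.7, n = 7) and from 41.3 to 55.4 CPM (median 46.9, n = 8), again without overlap, for a difference of -0.50 ± 0.08 (adjusted p = 4.02e-06). Grin1, without which no NMDA receptor forms, was called lower in 2M_6M (-0.38 ± 0.10, adjusted p = 0.00392) and not in the other 4 paradigms, where it differed by -0.22 to -0.049. Under Estop Grin1 was not called in any paradigm (-0.26 to -0.085). Grin3b, a glycine-binding subunit near the limit of detection, was called lower in 2M_6M (-0.66) and, under Estop, in 2M_6M and 2M_8M (-0.86 and -0.79). Grin2a and Grin2b, the regulatory subunits that dominate in the forebrain, were not called under DBD, with ranges of -0.26 to 0.24 and -0.27 to -0.084, and Grin2b was called lower under Estop in 2M_6M (-0.29). Grin2d (-0.20 to 0.32) and Grin3a (-0.028 to 0.31) were not called under either control virus.

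The balance of Grin2a and Grin2b, which sets channel kinetics, was taken as the log2 ratio of their TPM in each library, whatever the library size. In 2M_6M it was -2.33 ± 0.445 (SD, n = 8) in WT DBD, -2.63 ± 1.25 (SD, n = 7) in zQ175 DBD and -2.05 ± 0.251 (SD, n = 8) in zQ175 nZFP. None of 15 comparisons passed a two-sided exact permutation test after Benjamini-Hochberg adjustment. The smallest p was for nZFP against DBD in zQ175 in 6M_12M, where the ratio was lower by 0.315 with nZFP (exact permutation p = 0.0208, adjusted p = 0.312).

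Of the metabotropic receptors, 4 fell in at least 4 paradigms and the other two were called higher at most in 2. Grm3 (ENSMUSG00000003974, chr5:9485541-9725170, minus strand), the more abundant group II receptor and present on neurons and astrocytes, fell in all 5, with log2 fold changes of -0.38, -0.43, -0.35, -0.37 and -0.51. In 2M_6M it ran from 90.5 to 116 CPM (median 105, n = 8) in WT DBD and from 64.3 to 88.2 CPM (median 82.5, n = 7) in zQ175 DBD. In 6M_12M the ranges were from 79.5 to 122 CPM (median 94.3, n = 7) and from 55.1 to 79.4 CPM (median 73.8, n = 8). All zQ175 libraries were below all WT libraries in both paradigms, with adjusted p of 3.57e-07 and 2.34e-05.

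Grm5 (ENSMUSG00000049583, chr7:87584168-88134907, plus strand), the group I receptor that Homer proteins tether, fell in 4 paradigms and in 2M_8M differed by -0.31 (adjusted p = 0.0811). Its level in 2M_6M ran from 325 to 439.5 CPM (median 401, n = 8) in WT DBD and from 274 to 321 CPM (median 296, n = 7) in zQ175 DBD. The groups did not overlap, although the lowest WT value is that of replicate 7, one of the libraries of outlying transcript length. The difference was -0.41 ± 0.059 (adjusted p = 7.82e-07), and Estop libraries gave calls in all 5 paradigms (-0.43 to -0.36). Grm4 (ENSMUSG00000063239, chr17:27422387-27521403, minus strand), a group III receptor found on corticostriatal terminals and on indirect pathway neurons, fell in the first 4 paradigms, with log2 fold changes of -0.64, -0.53, -0.37 and -0.41 and differed by -0.49 in 6M_12M (adjusted p = 0.122). In 2M_6M it ran from 100.4 to 119 CPM (median 112, n = 8) in WT DBD and from 30.3 to 84.2 CPM (median 76.0, n = 7) in zQ175 DBD, without overlap. The lowest of the zQ175 values came from replicate 3, a library of outlying transcript length, and without the 2 such libraries of this paradigm the difference was -0.53.

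Grm2 (ENSMUSG00000023192, chr9:106643095-106656082, minus strand), the other group II receptor, fell in 2M_6M, 2M_8M, 6M_10M and 6M_12M, with log2 fold changes of -0.78, -0.62, -0.86 and -1.08. These are large differences at a low level: in 6M_12M it ran from 0.557 to 1.86 CPM (median 1.57, n = 7) in WT DBD and from 0.334 to 0.913 CPM (median 0.712, n = 8) in zQ175 DBD. The ranges overlapped. The group III receptors Grm7 and Grm8, which sit on presynaptic terminals, were called higher: Grm7 in 2M_6M and 6M_10M (0.19 and 0.22) and Grm8 in 6M_10M and 6M_12M (0.43 and 0.54). Grm8 was not called in any paradigm under Estop, where it differed by 0.26 to 0.49, and Grm7 was called there in 2M_6M alone (0.21).

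Dlg4 (ENSMUSG00000020886, chr11:70016942-70047522, plus strand) encodes PSD-95, the main MAGUK of mature spines, and fell in the first 4 paradigms, with log2 fold changes of -0.49, -0.32, -0.22 and -0.19. PSD-95 transcripts ran from 944 to 1076 CPM (median 978, n = 8) in WT DBD and from 319 to 836 CPM (median 788, n = 7) in zQ175 DBD in 2M_6M. The groups did not overlap. The value of zQ175 replicate 3, 319 CPM, was the lowest and lay apart from the others of its group, and without the libraries of outlying transcript length the difference was -0.36 in place of -0.49. In 6M_12M the difference of -0.25 was not called (adjusted p = 0.276). The 6M_10M difference was not called by limma-voom with mouse as a random block (-0.18 ± 0.074, adjusted p = 0.0773). Without a low-count filter the 6M_8M and 6M_10M calls were not kept (adjusted p = 0.0546 and 0.0588). The other MAGUKs, which encode SAP97 (Dlg1), PSD-93 (Dlg2) and SAP102 (Dlg3), gave a single call under DBD, Dlg1 higher by 0.19 ± 0.064 in 6M_10M, and differed elsewhere by -0.01 to 0.10, -0.40 to -0.041 and -0.0091 to 0.17.

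Shank3 (ENSMUSG00000022623, chr15:89499623-89560261, plus strand), the Shank scaffold most abundant in the striatum, fell in the first 4 paradigms, with log2 fold changes of -0.82, -0.64, -0.41 and -0.43. In 2M_6M it ran from 396 to 611 CPM (median 427, n = 8) in WT DBD and from 70.9 to 332 CPM (median 277, n = 7) in zQ175 DBD. The groups did not overlap, but each held a library far from the rest, WT replicate 6 at 611 CPM, a library whose vector transcripts went against its label, and zQ175 replicate 3 at 70.9 CPM. Without the libraries of outlying transcript length the difference was -0.66, and without those against their label -0.76, in place of -0.82. In 6M_12M the spread was wide, from 179 to 547 CPM (median 375, n = 7) in WT DBD and from 123 to 386 CPM (median 300.4, n = 8) in zQ175 DBD, and the difference of -0.46 was not called (adjusted p = 0.258). Shank1 ran from 19.2 to 61.3 CPM (median 57.6, n = 8) in WT DBD and from 69.6 to 86.6 CPM (median 79.3, n = 8) in zQ175 DBD in 6M_10M, without overlap, and was called higher there (0.58 ± 0.21, adjusted p = 0.0342). Under Estop it differed by 0.086 in that paradigm without a call. Shank2 was not called (0.062 to 0.35).

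Homer1 (ENSMUSG00000007617, chr13:93299635-93405129, plus strand) had the largest change of the set in 2M_6M, 2M_8M and 6M_8M and fell in all 5 paradigms, with log2 fold changes of -1.08, -0.76, -0.80, -0.86 and -0.71. It encodes both the long, scaffolding form and the short, activity-induced form of Homer1, which gene-level counts do not separate. Homer1 in 2M_6M ran from 283 to 408 CPM (median 322, n = 8) in WT DBD and from 135 to 179 CPM (median 153, n = 7) in zQ175 DBD. In 6M_12M the ranges were from 179 to 304 CPM (median 259, n = 7) and from 140.3 to 178 CPM (median 152, n = 8). In both paradigms every zQ175 library lay below every WT library, with differences of -1.08 ± 0.10 (adjusted p = 1.16e-11) and -0.71 ± 0.10 (adjusted p = 1.63e-07). In the Estop libraries the differences were -1.12, -0.94, -0.94, -0.98 and -0.89, all called. Homer2 went the other way and was called higher in 2M_8M, 6M_10M and 6M_12M (0.28, 0.34 and 0.23), but in no paradigm under Estop (-4.26e-04 to 0.23). Homer3 was not called (-0.13 to 0.16).

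**Figure D4:**
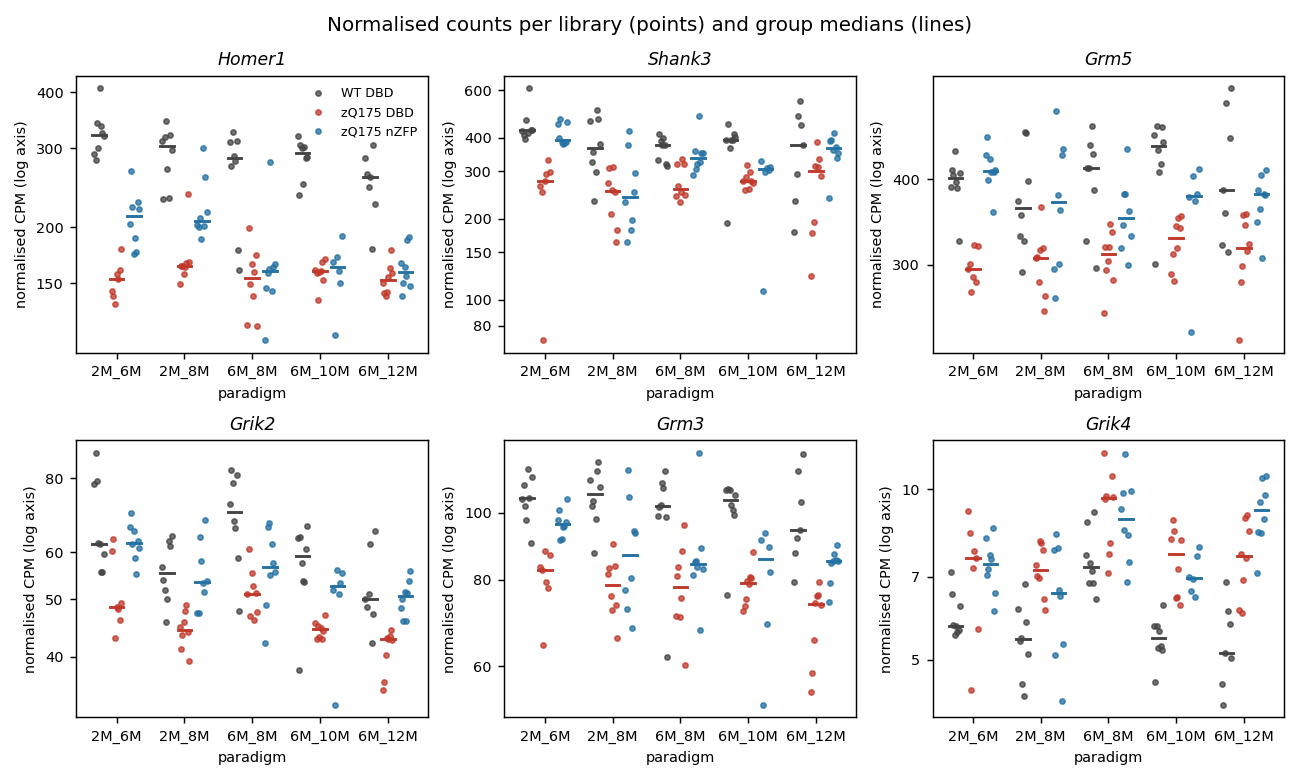
CPM of 6 genes in every library of WT DBD, zQ175 DBD and zQ175 nZFP, by paradigm, on a log axis; each point is 1 library and each line a group median. For Homer1 in 2M_6M the medians are 322, 153 and 212 CPM, and the zQ175 DBD points lie below all WT points.

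The second comparison asked what the repressor did in zQ175 striatum, with nZFP set against DBD. In 2M_6M, 11 genes rose: Dlg4, Grin1, Gria1, Homer1, Grm5, Shank3, Grm3, Gria3, Grm4, Grik2 and Homer3. Of these, Gria1 and Homer3 were not called between genotypes under DBD in that paradigm, and the other 9 were called lower in zQ175. The same 7 zQ175 DBD libraries enter both comparisons with opposite sign, so these counts are not independent. In 2M_8M, Homer1 and Grik2 rose and Homer2 fell, and in 6M_12M Grik2 rose. The transcript length ratio differed between the groups of 2M_8M, with a median of 0.2784 in zQ175 DBD and -0.2466 in zQ175 nZFP on the log2 scale, and with it as a covariate the differences there were 0.36 ± 0.11 (adjusted p = 0.0243) for Homer1, 0.40 ± 0.058 (adjusted p = 9.10e-07) for Grik2 and -0.29 ± 0.078 (adjusted p = 0.00755) for Homer2. Over the paradigms 11, 2, 0, 0 and 1 of the 33 genes were called higher, against 8.8%, 4.16%, 0.0437%, 0.562% and 0.676% of all genes. 0, 1, 0, 0 and 0 were called lower, against 14.4%, 2.9%, 0.0688%, 0.41% and 0.573% of all genes. The median log2 fold change of the set was 0.26, -0.036, 0.081, -0.057 and 0.14, against -0.035, 0.0019, -0.008, 0.0052 and 0.0011 over all genes. edgeR called 0 genes in 6M_8M and 6M_10M, where 4 and 2 had an unadjusted p under 0.05, as did 764 of 16000 and 1971 of 15840 of all genes, and DESeq2 and limma-voom also called 0 in both.

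The hemispheres of a mouse pair part of these libraries, and with mouse as a fixed block 5, 4, 0, 0 and 2 genes were called higher and 0, 1, 0, 0 and 0 lower. Grm5, Grik2, Homer1, Shank3 and Grm4 were the 5 called in 2M_6M in that fit. With the length ratio as a covariate 10, 10, 0, 4 and 4 were called higher, with both the mouse block and the ratio 10, 11, 0, 3 and 5, and with the replicate number as a block 11, 2, 0, 0 and 15. With Estop in place of DBD as the control, 2, 5, 0, 0 and 2 genes were called higher and 0 lower, and the 2 in 2M_6M were Grm5 and Grm3. Without the libraries against their label, 2M_6M, 2M_8M and 6M_12M gave 12, 2 and 0 higher, and without those of outlying transcript length 2M_6M, 6M_10M and 6M_12M gave 10, 1 and 1. Shares of all genes called in these alternative fits are not given, so a changed count may not be particular to the set. Against DBD, 9 of the 10 medium spiny neuron markers were called higher in 2M_6M and in 2M_8M, 0 in 6M_8M, 5 in 6M_10M and 4 in 6M_12M, and Tac1 was called lower in 2M_6M (-0.75 ± 0.18 (adjusted p = 0.00276)). Their summed level in 2M_6M was 7773 to 9439 CPM (median 9086) in zQ175 nZFP, above the range of zQ175 DBD and, at the top, short of the lowest WT DBD library. Of the other markers, 3 of 6 interneuron and 3 of 5 microglia markers were called higher in 2M_6M, 1 interneuron marker was called higher in 2M_8M, 1 cortical marker was called lower in each of 2M_6M and 2M_8M, and 0 astrocyte or oligodendrocyte markers were called in any paradigm. Whether these account for the receptor and scaffold values was not tested.

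Among the scaffolds, Homer1 in 2M_6M ran from 174 to 267 CPM (median 212, n = 8) with nZFP and from 135 to 179 CPM (median 153, n = 7) with DBD. The nZFP median was the higher and the ranges overlapped, for a rise of 0.45 ± 0.10 (adjusted p = 9.97e-04). In 2M_8M Homer1 rose by 0.38 ± 0.11, and after injection at 6 months it differed by 0.11, 0.012 and 0.087 without a call. Shank3 in 2M_6M ran from 379 to 469 CPM (median 394, n = 8) with nZFP, above every DBD library, for a rise of 0.71 ± 0.14 (adjusted p = 3.09e-04). With the 2M_6M libraries of outlying transcript length left out the rise was 0.54, and against Estop the difference was 0.12 ± 0.13 (adjusted p = 0.668). Dlg4 ran from 867 to 1083 CPM (median 964, n = 8) with nZFP, also above every DBD library, and rose by 0.45 ± 0.092 (adjusted p = 5.04e-04). Against Estop Dlg4 differed by 0.23 ± 0.088 (adjusted p = 0.109), and with mouse as a block by 0.42 ± 0.12 (adjusted p = 0.0503). Homer3, a Homer protein of low striatal level, rose by 0.25 ± 0.081, while Homer2 fell in 2M_8M by 0.35 on the log2 scale (adjusted p = 0.0152) and the other Shanks and MAGUKs were not called.

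Among the metabotropic receptors, Grm5 in 2M_6M ran from 358 to 461 CPM (median 411, n = 8) with nZFP and lay above every DBD library. The rise of 0.47 ± 0.059 (adjusted p = 1.14e-07) was also called against Estop (0.40) and with mouse as a block (0.42). Grm3 ran from 91.3 to 105 CPM (median 96.3, n = 8), again above the DBD libraries, and rose by 0.26 ± 0.052 (adjusted p = 3.85e-04), with an adjusted p of 0.0671 when mouse was a block. Grm4 ran from 90.2 to 116 CPM (median 102, n = 8) and rose by 0.53 ± 0.10 (adjusted p = 1.36e-04), and against Estop it differed by 0.22 ± 0.093 (adjusted p = 0.164). In the 4 other paradigms these 3 receptors were not called and differed by 0.18 to 0.31, 0.021 to 0.27 and 0.013 to 0.47. Grm2, Grm7 and Grm8 were called in none, with Grm2 between -0.28 and 0.33.

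Grik2 was the gene called most often with nZFP, higher in 2M_6M, 2M_8M and 6M_12M by 0.29 ± 0.10, 0.32 ± 0.085 and 0.30 ± 0.073. In 6M_12M it ran from 45.9 to 55.7 CPM (median 50.6, n = 8) with nZFP, above every DBD library of that paradigm. Without the libraries against their label the 6M_12M difference was 0.28 ± 0.077 (adjusted p = 0.0681), and against Estop it was 0.42 ± 0.073 (adjusted p = 2.35e-04). With mouse as a fixed block it was 0.23 ± 0.066 (adjusted p = 0.0634). The 2M_6M difference of Grik2 against Estop was 0.27 ± 0.092 (adjusted p = 0.0672). With the length ratio as a covariate that difference was 0.23 ± 0.091 (adjusted p = 0.0727). Grik4, higher in zQ175 under DBD, was called in no paradigm with nZFP against DBD (-0.15 to 0.27), nor were the other kainate subunits or Grid1. Gria1 in 2M_6M ran from 499.8 to 569 CPM (median 529, n = 8) with nZFP and from 235 to 489.8 CPM (median 481, n = 7) with DBD, without overlap, a rise of 0.26 ± 0.075 (adjusted p = 0.0106). Gria3 rose by 0.24 ± 0.072 in 2M_6M, and Gria2 and Gria4 were not called (-0.049 to 0.16 and -0.20 to 0.20). With mouse as a block Gria1 and Gria3 were no longer called (adjusted p = 0.214 and 0.106). Without the libraries of outlying transcript length the Gria3 difference in 2M_6M was 0.18 ± 0.064 (adjusted p = 0.0582) and that of Grik2 0.26 ± 0.10 (adjusted p = 0.0736).

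Of the NMDA receptor subunits, Grin1 alone was called with nZFP, by 0.33 ± 0.10 (adjusted p = 0.0186) in 2M_6M. It ran from 426 to 498 CPM (median 465, n = 8) with nZFP and from 157 to 464 CPM (median 389.7, n = 7) with DBD, and the ranges overlapped. Against Estop the direction of the Grin1 difference turned, to -0.11 ± 0.10 (adjusted p = 0.581), and with mouse as a block it was 0.26 ± 0.13 (adjusted p = 0.279). Grin2c, lower in zQ175 in all 5 paradigms, was called in no paradigm with nZFP against DBD and differed by 0.13, 0.063, 0.13, -0.065 and -0.0096.

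The third comparison asked which genotype differences were called where both genotypes carried nZFP. After injection at 2 months few were called: Homer1 and Grm3 in 2M_6M and Homer1 in 2M_8M, all lower. After injection at 6 months the called genes were more numerous and largely those called under DBD. Over the paradigms 2, 1, 8, 10 and 5 genes were called lower, against 0.664%, 2.62%, 9.18%, 9.28% and 8.75% of all genes, and 0, 0, 2, 1 and 1 higher, against 0.874%, 4.05%, 7.89%, 10.3% and 7.93% of all genes. Of the genes called lower under nZFP, 2 of 2, 1 of 1, 7 of 8, 10 of 10 and 5 of 5 were also called lower under DBD, and these are 2 of 13, 1 of 10, 7 of 9, 10 of 11 and 5 of 8 of the DBD calls. The median size of the log2 difference over the 33 genes, whatever its sign, was 0.11, 0.14, 0.20, 0.23 and 0.21 under nZFP and 0.26, 0.22, 0.20, 0.24 and 0.25 under DBD. Such sizes were not taken over all genes, so they do not set these genes apart from others. By class, 1, 0, 3, 4 and 2 of 6 metabotropic receptors and 1, 1, 1, 1 and 1 of 3 Homer scaffolds were called lower, with class medians of -0.17, -0.035, -0.26, -0.43 and -0.15 and 0.10, 0.071, 0.032, -0.027 and 0.046. Medium spiny neuron markers called lower numbered 5, 5, 9, 9 and 9 of 10. Oligodendrocyte markers called lower numbered 1, 3, 2, 3 and 1 of 6. Without the libraries against their label, 6M_8M gave 9 members lower and 3 higher. Without those of outlying transcript length, 6M_8M and 6M_12M gave 8 and 5 lower and 0 and 3 higher. The transcript length ratio in 2M_8M ran from -0.5551 to -0.0365 in WT nZFP and from -0.5497 to 0.523 in zQ175 nZFP. With that ratio as a covariate more genes of the set were called lower over the 5 paradigms, as given in the last section. How those calls divide between injection at 2 and at 6 months is not given. Whether the genotype difference itself differed between viruses is the test of the interaction, given with the WT results.

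Homer1 was the gene called in all 5 paradigms under nZFP, with differences of -0.50, -0.36, -0.79, -0.69 and -0.57, beside -1.08, -0.76, -0.80, -0.86 and -0.71 under DBD. In 6M_10M it ran from 211 to 302 CPM (median 252, n = 8) in WT nZFP and from 115 to 191 CPM (median 163, n = 6) in zQ175 nZFP, and no zQ175 library reached the WT range. Grm3 was called in 4 paradigms (-0.23, -0.29, -0.50 and -0.26) and differed by -0.066 in 2M_8M without a call. Grm5, Grin2c and Grik4 were called in the 3 paradigms injected at 6 months and in neither injected at 2 months: Grm5 (-0.38 to -0.22) and Grin2c (-0.43 to -0.25) lower and Grik4 (0.25 to 0.72) higher. Grik2, Shank3 and Grm4 were called lower in 6M_8M and 6M_10M, Grik2 with differences of -0.31 and -0.30, Shank3 of -0.39 and -0.67, and Grm4 of -0.29 and -0.60. Gria2 was called lower in 6M_8M and 6M_12M (-0.18 and -0.22), and Dlg4, Gria3 and Grm2 in 6M_10M alone (-0.33, -0.34 and -1.13). Shank2 was called higher in 6M_8M (0.32) and the remaining 20 genes were called in no paradigm.

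In WT mice, which lack an expanded allele, nZFP against DBD gave calls in 2M_8M alone: Grin2a differed by -1.19 ± 0.33 (adjusted p = 0.0382) and Grin2d by -0.50 ± 0.15 (adjusted p = 0.0449). Over the paradigms 0.268%, 2.98%, 0.581%, 0.48% and 0.238% of all genes were called in either direction. In the 4 paradigms with 0 calls by edgeR, 3 and 3 genes of the set in 2M_6M and 6M_8M and 1 and 1 in 6M_10M and 6M_12M had an unadjusted p under 0.05. Of all genes these were 612 of 15673, 2458 of 16000, 1311 of 15840 and 588 of 15523. DESeq2 called 5 genes and limma-voom 4 in 2M_8M, all lower, and 0 in the other 4 paradigms. Grin2a in 2M_8M ran from 4.96 to 15.8 CPM (median 8.18, n = 8) in WT nZFP and from 11.0 to 30.5 CPM (median 18.6, n = 8) in WT DBD, with overlap. In that comparison the transcript length ratio moved with the virus, from a median of 0.1159 in WT DBD to -0.4212 in WT nZFP on the log2 scale, and with it as a covariate the differences were -0.43 ± 0.17 (adjusted p = 0.169) for Grin2a and -0.27 ± 0.11 (adjusted p = 0.195) for Grin2d. 

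The test of whether nZFP acted differently in the genotypes gave 4 calls in the set, all positive: Homer1 by 0.58 ± 0.14 (adjusted p = 0.00799), Shank3 by 0.70 ± 0.19 (adjusted p = 0.0295) and Grm4 by 0.46 ± 0.13 (adjusted p = 0.0492) in 2M_6M, and Grik2 by 0.44 ± 0.12 (adjusted p = 0.0391) in 2M_8M. Of all genes, 3.27%, 1.99%, 0%, 0.0505% and 0% were called. The value is the nZFP effect in zQ175 minus that in WT, and for Homer1 in 2M_6M these were 0.45 and -0.14. For Shank3 they were 0.71 and 0.0029, and for Grm4 0.53 and 0.07. In the paradigms injected at 6 months edgeR called 0 genes of the set, and 0, 1 and 2 of them had an unadjusted p under 0.05, as did 710 of 16000, 2374 of 15840 and 643 of 15523 of all genes. DESeq2 and limma-voom also called 0 in these 3 paradigms. Without the libraries against their label 1 gene of the set was called over the 5 paradigms. With Estop as control the Shank3 value was 0.46 ± 0.19 (adjusted p = 0.376) and that of Grm4 0.24 ± 0.13 (adjusted p = 0.712). With mouse as a fixed block these were 0.61 ± 0.24 (adjusted p = 0.378) and 0.39 ± 0.18 (adjusted p = 0.489). The calls of Homer1 and Grik2 were kept in both fits. The Grik2 call was not kept without the libraries against their label (adjusted p = 0.0503) or without a low-count filter (adjusted p = 0.0561).

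At a matched 4 months of treatment, the effect of nZFP in zQ175 in 2M_6M exceeded that in 6M_10M for Gria4 (by 0.39 ± 0.11, adjusted p = 0.0119) and Dlg4 (by 0.46 ± 0.15, adjusted p = 0.0248), against 12.3% of all genes called in either direction. For Gria4 the effects were 0.20 and -0.20, and for Dlg4 0.45 and -0.0095. Without the libraries of outlying transcript length 0 genes of the set were called. At a matched 6 months of treatment (2M_8M against 6M_12M) edgeR called 0 genes of the set and 0.0834% of all genes, with 5 of the set and 3364 of 16792 of all genes at an unadjusted p under 0.05. For the genotype difference under DBD in the oldest against the youngest mice (6M_12M minus 2M_6M) it called 0 of the set and 0.238% of all, with 4 of the set and 2104 of 16792 of all genes at an unadjusted p under 0.05. DESeq2 and limma-voom were not run on these 3 differences.

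The control viruses themselves were compared. In WT, Shank3 was lower under DBD than under Estop in 6M_8M (-0.51 ± 0.11, adjusted p = 0.0273) and 6M_10M (-0.58 ± 0.13, adjusted p = 0.0137), the only calls in the set, beside 0.108%, 0.196%, 0.188%, 0.669% and 0.167% of all genes. With mouse as a fixed block neither Shank3 call was kept (adjusted p = 0.224 and 0.210). Without the libraries against their label the 6M_8M difference was -0.45 ± 0.12 (adjusted p = 0.0922). In zQ175, Grin1 (-0.44 ± 0.10, adjusted p = 0.0223) and Shank3 (-0.58 ± 0.14, adjusted p = 0.0255) were lower under DBD than under Estop in 2M_6M, beside 4.5%, 0.184%, 0.0563%, 0.234% and 0.29% of all genes. The Shank3 call was not kept with mouse as a fixed block (adjusted p = 0.0706). With the length ratio as a covariate the differences were -0.30 ± 0.079 for Grin1 (adjusted p = 0.0735) and -0.40 ± 0.10 for Shank3 (adjusted p = 0.0736). In 2M_6M, 15 of the 33 genes had an unadjusted p under 0.05 in that comparison, as did 3955 of 15673 genes tested in all. There 30 of the 33 were lower under DBD, with a set median of -0.17 against 0.012 over all genes. The same zQ175 DBD libraries enter the 2M_6M genotype and nZFP comparisons above. Shank3 in zQ175 Estop ran from 357 to 422 CPM (median 371, n = 8) in 2M_6M, beside from 70.9 to 332 CPM (median 277, n = 7) under DBD and from 379 to 469 CPM (median 394, n = 8) under nZFP, so the nZFP and Estop medians were nearer to each other than either was to DBD.

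The rest of the glutamate synapse was followed in a list of 51 genes for auxiliary proteins, receptor trafficking, postsynaptic signalling, synaptic adhesion and glutamate handling, of which 49 or 50 were tested. In zQ175 against WT under DBD 22, 11, 11, 15 and 10 were called lower and 4, 6, 2, 5 and 5 higher, against 11.5%, 9.37%, 5.15%, 12.3% and 9.14% of all genes lower and 17.2%, 9.32%, 3.98%, 11.9% and 9.14% higher. With nZFP against DBD in zQ175 21, 3, 0, 3 and 2 were called higher and 3, 2, 0, 0 and 0 lower, against 8.8%, 4.16%, 0.0437%, 0.562% and 0.676% of all genes higher and 14.4%, 2.9%, 0.0688%, 0.41% and 0.573% lower. Under nZFP 1, 2, 11, 15 and 6 were called lower and 1, 2, 5, 5 and 3 higher in zQ175, against 0.664%, 2.62%, 9.18%, 9.28% and 8.75% of all genes lower and 0.874%, 4.05%, 7.89%, 10.3% and 7.93% higher. Neto2, an auxiliary protein of kainate receptors, fell in all 5 paradigms under DBD with log2 fold changes of -1.04 to -0.86, each farther from 0 than that of Grik2. The AMPA receptor auxiliary proteins Gsg1l (-0.81 to -0.64) and Cacng3 (-0.71 to -0.31) also fell in all 5, while Cnih3 (0.42 to 0.90) and Cacng7 (0.09 to 0.26), of the same kind, were called higher in 4, named after their values were seen. Downstream of the receptors, Itpr1, the calcium release channel that Homer binds, Ppp3ca, a catalytic subunit of calcineurin, and Camk2b, a subunit of calcium/calmodulin kinase, fell in all 5, with log2 fold changes of -0.82 to -0.53, -0.74 to -0.35 and -0.43 to -0.26. The adhesion protein Lrrtm1 (-0.70 to -0.45) and the glutamine synthetase gene Glul (-0.41 to -0.24), which is expressed in astrocytes, were lower in all 5 as well. Ppp3ca and Lrrtm1 rose with nZFP in 3 paradigms, with log2 fold changes over the 5 of 0.17 to 0.39 and 0.025 to 0.55.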

How the data were processed

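RNA from the striatum of zQ175 and WT mice was measured in 233 libraries, prepared from polyadenylated RNA with a strand-specific protocol per the labels. The deposited count table holds the authors' expected counts per gene, made with RSEM on GRCm38 per the submitters' processing notes. Versions, aligner and annotation release are not given in the sources. A second deposited table is named FPKM, but every column sums to 1000000, so its values were read as TPM and the planned FPKM steps used them. Expected counts were rounded (90.3% were whole), and edgeR 4.0.16 (R 4.3.3) was used for the tests: genes passing filterByExpr, TMM scaling, robust quasi-likelihood fit of the 6 groups of a paradigm with sex as covariate, and Benjamini-Hochberg adjustment over all 15523 to 16000 genes tested, with calls at an adjusted p under 0.05. Contrasts across paradigms were taken from a joint fit of the 30 groups (16792 genes). Levels are TMM-normalised CPM within a gene and TPM between genes. The standard error is the log2 fold change divided by the square root of F. Of 41129 genes, 40254 had a symbol in GENCODE M21 (GRCm38), the source of gene coordinates, and promoter sequences are from RefSeq (GRCm38.p6). In data simulated on the DBD genotype comparison of 2M_6M (15576 genes), 28.8%, 57.6% and 84.8% of genes changed by 0.3, 0.5 and 1 on the log2 scale were recovered, and 6 of 15378 unchanged genes were called. That simulation changed 198 genes, drawn at random.

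The genes of the set and the gene lists were chosen with earlier results of these data known. Genes given in full were those called in the same direction in at least 4 paradigms in genotype under DBD or at least 2 in nZFP against DBD in zQ175, plus the most abundant of each class; other genes are given by range, and further single calls were named after their values were seen. A library went against its label with under 50 CPM of the repressor transcript in nZFP, 50 or more in DBD or Estop, or under 200 CPM of the vector element WPRE in DBD. The transcript length ratio is the mean log2 CPM of genes with transcripts of at least 5216 bases minus that of genes with transcripts of at most 2483 bases, and a library over 4 scaled median absolute deviations from its paradigm stood apart. Libraries of a mouse come from the same animal, and their residuals had median correlations of 0.091, 0.25, 0.068, 0.04 and 0.30 by paradigm, against 0.018, 0.049, 0.0049, 0.066 and 0.29 for a shared replicate number in other mice. The labels do not say that replicate numbers pair samples. Alternatives were other size factors, no filter, DESeq2 1.42.0, limma 3.58.1 with mouse as a random block, mouse or replicate number as a fixed block, the length ratio as covariate, no sex term, Estop as control, and leaving out the doubted libraries. Shares of all genes are given for the edgeR fits with sex as covariate and not for these alternatives.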

Additional observations from a re-analysis of the deposited data

Results flagged for a closer look

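Outlying libraries were looked for in 66 groups of values, those of the 10 genes called most often and of the Grin2a to Grin2b ratio in 3 groups of 2 paradigms, and 9 values lay far from the rest of their group. Chance alone marks about 1 in 20 such groups. Of the 9, 5 came from zQ175 DBD 2M_6M replicate 3, a library of outlying transcript length: Grm3 at 64.3 CPM, Shank3 at 70.9 CPM, Grm4 at 30.3 CPM, Dlg4 at 319 CPM and a log2 ratio of Grin2a to Grin2b of -5.39, each the lowest of its group. In WT DBD 2M_6M, Shank3 was highest in replicate 6 at 611 CPM, a library whose vector transcripts went against its label, and Grm5 was lowest in replicate 7 at 325 CPM, a library of outlying transcript length. In zQ175 nZFP 6M_12M, replicate 1 was lowest for Shank3 at 239 CPM and for Dlg4 at 739 CPM. The effect of this replicate 1 on the 6M_12M comparisons was not tested.

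A difference between genotypes in the effect of nZFP, by the interaction term, was called for Homer1 (0.58), Shank3 (0.70) and Grm4 (0.46) in 2M_6M and for Grik2 (0.44) in 2M_8M. Of all genes 3.27% were called in 2M_6M and 1.99% in 2M_8M. The Shank3 and Grm4 calls were not kept with Estop as control or with mouse as a fixed block. Without the libraries against their label the Shank3, Grm4 and Grik2 calls were not kept. A difference between paradigms in the effect of nZFP in zQ175, 2M_6M minus 6M_10M, was called for Gria4 (0.39) and Dlg4 (0.46). Of all genes 12.3% were called in that comparison in either direction. Neither call was kept without the libraries of outlying transcript length.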

How the results depend on the processing

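Counts here are calls in the set over the 5 paradigms. Calls over all genes in the same settings are not given, so a changed count may not be particular to the set. Genotype under DBD gave 13 higher and 51 lower, and the higher count became 7 without a low-count filter and 22 with the length ratio as covariate. Under Estop the 8 higher became 23 with that covariate. For nZFP against DBD in zQ175, 14 higher and 1 lower became 29 higher with mouse as a fixed block and the length ratio, 28 higher and 2 lower with the replicate block, 28 and 2 with the length ratio, and 9 and 0 with Estop as control. Genotype under nZFP gave 4 higher and 26 lower; higher became 2 without a filter, 14 with the replicate block and 10 with the length ratio, and lower became 44 with the length ratio. The 2 lower calls of nZFP in WT became 5 with DESeq2, 4 with mouse as a random block, 1 with Estop as control, and 0 without a filter, with mouse as a fixed block (with or without the length ratio) and with the length ratio. Its 0 higher became 2 with mouse as a fixed block and the length ratio, 5 with the length ratio and 1 without the libraries of outlying length. The 4 interaction calls became 1 without a filter, 8 with mouse as a random block, 1 without the libraries against their label, 11 with the length ratio and 2 without sex. Control viruses in WT (2 lower) gave 1 with mouse as a fixed block, 6 with mouse and the length ratio, 1 without the libraries against their label, 4 without those of outlying length and 7 with the length ratio. The 1 call with mouse as a fixed block was not one of the 2 Shank3 calls. Control viruses in zQ175 (2 lower) gave 4 with mouse as a fixed block and 6 with the length ratio added, which also gave 1 higher. The Shank3 call was not kept in either of these fits. The 2 calls of 2M_6M minus 6M_10M became 0 without the libraries of outlying length and 4 with the length ratio. The causes of these changes were not tested.

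Leaving out libraries of outlying length turned the Grin2 ratio difference to 0.066 in genotype under DBD in 2M_6M and to 0.187 in genotype under nZFP in 6M_10M, and with Estop as control the Grin1 difference in 2M_6M was -0.11. The replicate block, used although no source says the numbers pair samples, changed calls most in 6M_12M, where nZFP against DBD in zQ175 gave 15 higher in place of 1. In data simulated on genotype under DBD in 2M_6M, 28.8% of changes of 0.3 on the log2 scale were found, which limits what a missing call says. The simulation changed 198 genes at random, while the data gave 2694 higher and 1803 lower calls. The adjustment is stricter where fewer genes change, so the share found may differ in the data. Values under 1 TPM (Grik1, Grin3b, Grm2) rest on few reads.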
